A study of Mus musculus with 6 samples.

Results

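Glycolysis and the transcriptional response to low oxygen were followed through 39 genes, chosen by name from the 30768 genes of the deposited table: 17 glycolytic enzymes, 5 regulators of glycolytic flux and lactate export, 5 hypoxia-inducible factor (HIF) subunits and regulators, 3 prolyl hydroxylases and 9 other hypoxia targets. All 39 were in the table, and all 39 passed the filter on low counts, among 18103 genes that did. The cells were bEnd.3, an immortalised endothelial line from mouse brain, given a miR-423-5p mimic (3 libraries, called miR-423-5p below) or a control mimic (3 libraries, called control below). A mimic is a small synthetic duplex that supplies the cell with extra copies of a microRNA. The comparison asks how raising miR-423-5p changes gene expression in endothelial cells. The labels state no dose, time of harvest or oxygen level. Whether the 3 libraries of each group are separate cultures is not stated either, and the p-values therefore cover only the variation among these libraries, possibly technical.

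Glycolysis splits glucose into pyruvate in the cytosol, and lactate dehydrogenase then turns pyruvate into lactate. Endothelial cells are known to draw much of their ATP from this route even when oxygen is present. The same enzymes are classic targets of the hypoxia-inducible factors: in oxygenated cells prolyl hydroxylases mark the HIF alpha subunits for binding by the von Hippel-Lindau protein and destruction, while in low oxygen the alpha subunit pairs with ARNT and binds promoters and enhancers at elements built on the letters ACGTG. Oxygen acts on the HIF alpha subunits mainly at the protein level, which messenger RNA counts do not measure.

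The microRNA itself is shown first because its seed, bases 2 to 8 in capitals, is what pairs with messenger RNAs. The mature sequence is RefSeq's, at chr11:77078122-77078144 on the minus strand of GRCm38.p6.
mmu-miR-423-5p: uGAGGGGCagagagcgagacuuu
A match to the seed reads GCCCCTC in the messenger RNA, and GCCCCTCA when the base opposite the first base of the microRNA is an A. Among the 39 genes, 9 (23.1%) held GCCCCTC in the longest 3′ untranslated region that GENCODE M21 annotates, against 13.2% of the 13878 genes tested that have such a region. The longer match was in 2 of the 39 (5.13%), against 3.69%. The matches below are those of the called genes and of the 2 genes with the longer match, read from GENCODE M21 transcripts on GRCm38, with the match in capitals.
Ddit4: tggggcacacGCCCCTCAgtactgtagc
Mxi1: ataagcctggGCCCCTCActggcctgaa
Pkm: gccctctggaGCCCCTCttctagcccct
Gpi1: gcatggtcctGCCCCTCcctgcccagag
Ndrg1: tccctctcctGCCCCTCctgctgactgg
A match is a run of letters and was not tested as a binding site. Of the 9 genes with a match, 3 rose (Pkm, Gpi1 and Ndrg1), 1 fell (Ddit4) and 5 were not called (Pfkm, Aldoc, Eno1, Pfkfb4 and Mxi1), with a median log2 fold change of 0.41. Of the 30 genes without one, 9 rose, none fell and 21 were not called, with a median of 0.32.

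Total counts ran from 63217696 to 78456344 per miR-423-5p library and from 64561989 to 69250575 per control library. For the endothelial label, 12 endothelial markers were read in every library. Between the groups 11 of the 12 rose, Pecam1 and Cdh5 among them, against 9.09% of all genes tested. Such a rise does not itself check the label. Cldn5, a tight junction gene typical of brain endothelium, had few reads, with raw counts of 43, 50 and 8 in miR-423-5p libraries and 14, 8 and 12 in controls, and was not called. The summed level of the 12 ran from 6454 to 6627 CPM (counts scaled to library size) in miR-423-5p libraries and from 3285 to 3671 CPM in control libraries. Of 10 fibroblast and pericyte markers 6 fell, against 7.21% of all genes tested. Their summed level ran from 20.1 to 26.6 CPM in miR-423-5p libraries and from 82.8 to 188 CPM in control libraries. The part of these shifts in the results below was not tested, and in bulk RNA fewer cells of a type and less RNA per cell cannot be told apart. Control 3 stood apart by transcripts of other cell types: it was the highest of the 6 libraries for 7 of 8 macrophage markers, 6 of 7 neuron markers and 3 of 3 epithelial markers. It was the highest for 3 of 5 astrocyte markers and for 2 of the 10 fibroblast and pericyte markers.

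Of the glycolytic enzymes, 8 of 17 rose in cells with miR-423-5p. In edgeR's quasi-likelihood test with Benjamini-Hochberg adjustment over all genes at a threshold of 0.05, none of the 17 fell and 9 were not called, 4 of them with a negative log2 fold change (Hk1, Eno2, Aldoc and Ldhb). The other 22 genes held 4 that rose and 1 that fell, so that 12 of 39 rose, 1 fell and 26 were not called. Over all genes tested 16.3% were called, 9.09% as higher and 7.21% as lower. The median log2 fold change was 0.41 in the enzymes, 0.34 in the other 22 genes, 0.36 in all 39 and −0.02 in all genes tested. In 18 of the 39 genes every miR-423-5p library lay above every control library, as in 18.8% of all genes tested, and in 4 of the 39 every miR-423-5p library lay below, as in 19.6% of all genes. The 39 genes together took 1.82%, 1.72% and 1.77% of all reads in miR-423-5p libraries 1, 2 and 3, and 1.48%, 1.27% and 1.31% in controls 1, 2 and 3. The groups did not overlap in that share, which is taken of the total counts of each library and so also depends on the reads of all other genes.

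**Figure D1:**
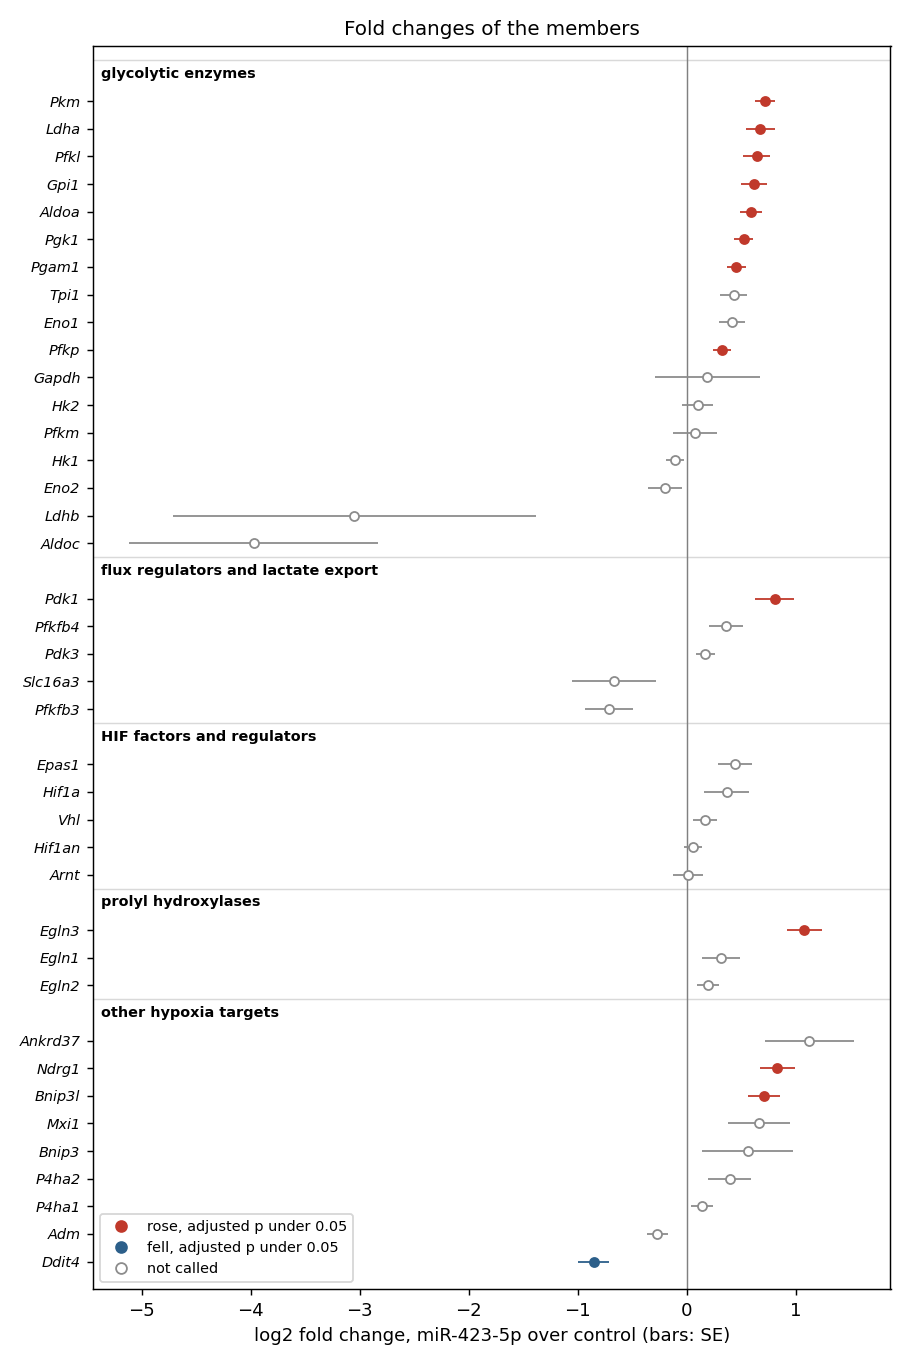
Log2 fold change, miR-423-5p over control, of each of the 39 genes, with its standard error, grouped by role; colour marks the edgeR call at an adjusted p under 0.05. Of the 17 enzymes 8 rose and none fell, Egln3, Pdk1, Ndrg1 and Bnip3l rose in the other groups, and Ddit4 alone fell.

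The calls depended on single libraries. Without control 2, 2 of the 12 increases were still called, those of Pkm and Egln3, beside the decrease of Ddit4, while 942 genes were called over the whole table. Without control 1, 14 genes rose and 1 fell, and without miR-423-5p replicate 3, 6 rose and 1 fell, and without miR-423-5p replicate 1, 7 rose and 1 fell. Leaving out miR-423-5p replicate 2 gave 15 that rose and 1 that fell, with Egln2, Eno1 and Tpi1 added to the calls. Without control 3, 11 rose and 1 fell, and the call of Pdk1 was lost. Scaling to total counts in place of TMM moved the median of all genes to −0.18. Of the 39 genes 10 then rose and 4 fell, namely Ddit4, Adm, Aldoc and Pfkfb3. The split of calls over all genes went with it, to 25.4% higher against 55.8% under TMM, and among the 39 genes to 71.4% against 92.3%. The 8 enzymes called kept a positive log2 fold change under each alternative run, between 0.08 (Pfkp) and 0.84 (Ldha).

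Read counts summed over the 17 enzymes came to 17509, 15526 and 16960 CPM in miR-423-5p libraries 1, 2 and 3 and to 12315, 10557 and 11027 CPM in controls 1, 2 and 3. Every miR-423-5p library was above every control, and Pkm and Aldoa contributed most when each enzyme was counted by its own row. Gapdh with its near-identical copies, described below, averaged 6062 CPM in miR-423-5p libraries and 4694 CPM in controls. That value is above those of Pkm and Aldoa, but how reads that fit several copies were counted is not stated. If a read was counted on more than a single copy, the value is too high, so the ranking is uncertain. The sums over the 17 enzymes leave those copies out. Per length, on the deposited FPKM scale and by each own row, Aldoa led with 1185 ± 38.1 FPKM in miR-423-5p libraries and 893 ± 83.6 FPKM in controls, followed by Pkm with 829 ± 54.3 and 574 ± 29.4 FPKM (SD, n = 3 each).

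At the first step hexokinases trap glucose in the cell as glucose 6-phosphate, and neither was called. Hk1, the constitutive form, had 253, 245 and 232 CPM in miR-423-5p libraries and 259, 246 and 282 CPM in controls, a log2 difference of −0.11 with an SE of 0.0816 (edgeR adjusted p = 0.392). Hk2, the inducible form, had 30.3, 36.9 and 35.3 CPM in miR-423-5p libraries and 28.4, 29.1 and 38.1 CPM in controls, a log2 fold change of 0.10 (edgeR adjusted p = 0.664). The groups overlapped for both, and the sign for Hk2 turned with the scaling. Slc2a1, the main glucose transporter of brain endothelium and no member of the set, was at 150 ± 18 CPM in miR-423-5p libraries and 98.5 ± 30.5 CPM in controls, 1.52-fold higher but not called (edgeR adjusted p = 0.0833); it was singled out after its values were seen.

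Gpi1, which turns glucose 6-phosphate into fructose 6-phosphate, lies at chr7:34201330-34230336. It had 845, 710 and 857 CPM in miR-423-5p libraries and 600, 499 and 477 CPM in controls. All 3 miR-423-5p libraries were above all 3 controls, and the increase was 1.53-fold (edgeR adjusted p = 0.0143). Phosphofructokinase, the committed step, is a tetramer of liver-, muscle- and platelet-type subunits that Pfkl, Pfkm and Pfkp encode. Pfkl, the most abundant of the 3 per length (38.6 FPKM in miR-423-5p libraries, 28.1 FPKM in controls), had 312, 276 and 299 CPM in miR-423-5p libraries and 226, 164 and 179 CPM in controls. It rose 1.56-fold without overlap (edgeR adjusted p = 0.0148). Pfkp rose 1.25-fold (edgeR adjusted p = 0.0424), with 103, 110 and 114 CPM in miR-423-5p libraries and 83.9, 82.1 and 96.0 CPM in controls. That call was the least stable of the enzymes: it was kept in 2 of the 6 settings that left out a library and in 4 of 10 other settings. Pfkm had 33.7, 30.3 and 49.5 CPM in miR-423-5p libraries and 32.5, 32.2 and 43.0 CPM in controls, with library 3 high in both groups and full overlap (edgeR adjusted p = 0.832).

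Aldolase splits fructose 1,6-bisphosphate. Aldoa, at chr7:126795234-126800751, had 4100, 3757 and 4015 CPM in miR-423-5p libraries and 2975, 2464 and 2447 CPM in controls. The lowest miR-423-5p library was above the highest control, and the increase was 1.51-fold (edgeR adjusted p = 0.01). Aldoc, the form typical of brain, was near the detection limit except in control 3: its raw counts were 19, 9 and 10 in miR-423-5p libraries and 30, 49 and 566 in controls. The log2 fold change was −3.97 ± 1.14 (edgeR adjusted p = 0.0528), and −1.57 without control 3 (adjusted p = 0.122), over a range of adjusted p from 0.0432 to 0.322 across the alternatives. Ldhb, the heart-type lactate dehydrogenase subunit, behaved alike, with raw counts of 3, 0 and 39 in miR-423-5p libraries and 8, 29 and 377 in controls, and a log2 fold change of −3.05 with all libraries and −0.17 without control 3. Control 3 was also the highest library for 6 of 7 neuron markers (all but Nefl) and 7 of 8 macrophage markers (all but Cd68), for example Tubb3 with 24.5 CPM against 0.554 CPM at most elsewhere. Of 5 astrocyte markers other than Aldoc, it was the highest for 3 (all but Aldh1l1 and Sox9). The part of these transcripts in Aldoc and Ldhb was not tested.

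In the second stage of the pathway, Tpi1, which interconverts the triose phosphates, had 974, 839 and 968 CPM in miR-423-5p libraries and 785, 579 and 701 CPM in controls. The groups did not overlap, but the 1.35-fold difference was not called (edgeR adjusted p = 0.0556). Pgk1, the first ATP-forming enzyme, had 1503, 1583 and 1547 CPM in miR-423-5p libraries and 1171, 1007 and 1048 CPM in controls. It rose 1.44-fold, with all miR-423-5p libraries above all controls (edgeR adjusted p = 0.00815). Pgam1, which moves the phosphate of 3-phosphoglycerate, rose 1.37-fold (edgeR adjusted p = 0.0151), with 729, 772 and 720 CPM in miR-423-5p libraries and 595, 505 and 519 CPM in controls. Eno1, the ubiquitous enolase, had 2074, 1656 and 1961 CPM in miR-423-5p libraries and 1612, 1327 and 1340 CPM in controls, without overlap but also without a call (1.33-fold, edgeR adjusted p = 0.0548). Eno2, the neuronal enolase, was scarce at 7.39, 7.13 and 8.43 CPM in miR-423-5p libraries and 7.62, 8.53 and 10.1 CPM in controls, with overlap (edgeR adjusted p = 0.42).

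Pyruvate kinase and lactate dehydrogenase close the pathway, and Pkm and Ldha rose, while Ldhb was not called. Pkm, at chr9:59656368-59679375 on the plus strand, encodes the M1 and M2 forms of pyruvate kinase through alternative exons, which counts per gene do not tell apart. It had 5114, 4412 and 4742 CPM in miR-423-5p libraries and 3061, 2752 and 2881 CPM in controls. That is 4756 ± 352 CPM in miR-423-5p libraries against 2898 ± 155 CPM in controls (SD, n = 3 each), a 1.64-fold increase (log2 fold change 0.71 ± 0.0918, SE; edgeR adjusted p = 0.00316). Pkm was called as higher in each of the 6 settings that left out a library and in each of 10 other settings. Ldha, the main lactate dehydrogenase subunit here, had 1069, 940 and 1036 CPM in miR-423-5p libraries and 772, 567 and 572 CPM in controls. It rose 1.59-fold without overlap (edgeR adjusted p = 0.0160), and control 1 was the highest control.

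**Figure D2:**
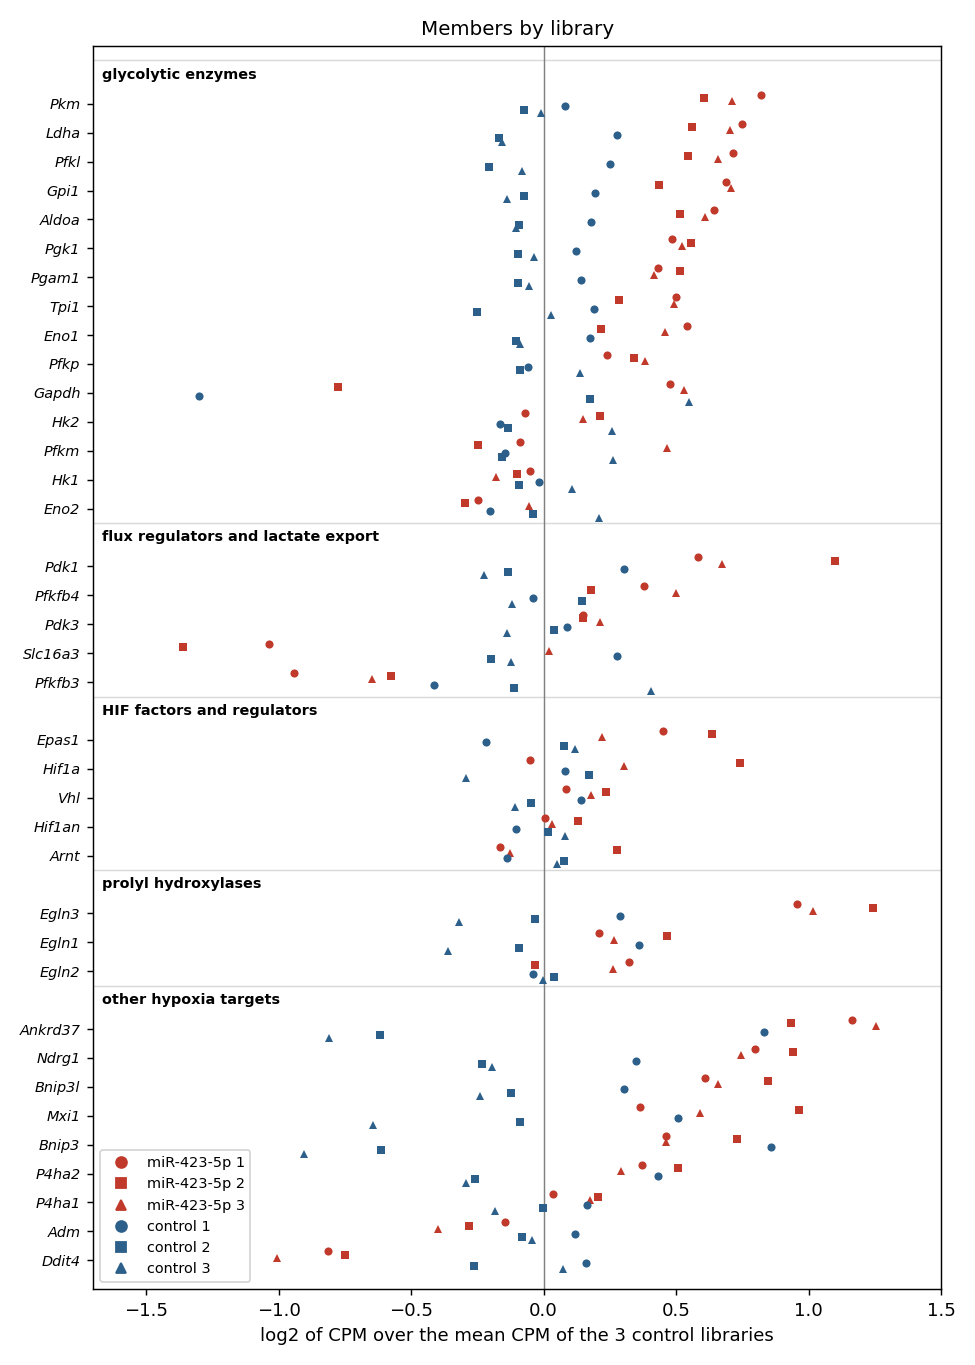
Log2 of the CPM of each gene in each library over the mean CPM of the 3 controls, for 37 of the 39 genes. Aldoc and Ldhb, with few reads outside control 3, are left out. Colour marks the group and the symbol marks the replicate. Each of the 8 called enzymes was above the control mean in all 3 miR-423-5p libraries, and control 1 was the highest control for each of the 9 other hypoxia targets.

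Gapdh, the glyceraldehyde 3-phosphate dehydrogenase often used as a reference gene, could not be read from its own row. That row had 361, 151 and 375 CPM in miR-423-5p libraries and 105, 293 and 380 CPM in controls, with no order by group and a highest value 3.61 times the lowest (edgeR adjusted p = 0.824). The GENCODE M21 transcripts hold 160 genes of at least 90% identity over at least 50% of the Gapdh coding sequence, of which 118 were in the table. Those copies took 94.5%, 96.9% and 94.4% of the reads of row and copies in miR-423-5p libraries, and 97.8%, 92.8% and 92.7% in controls. Row and copies summed came to 6587, 4932 and 6666 CPM in miR-423-5p libraries and to 4781, 4081 and 5220 CPM in controls. The sums still overlapped, with a log2 fold change of 0.37 ± 0.146 that was not called (edgeR adjusted p = 0.125). How reads that fit several copies were counted is not stated in the sources. For the other enzymes with such copies and a call, the copies took under 5% of the reads, and summing them changed no call.

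**Figure D3:**
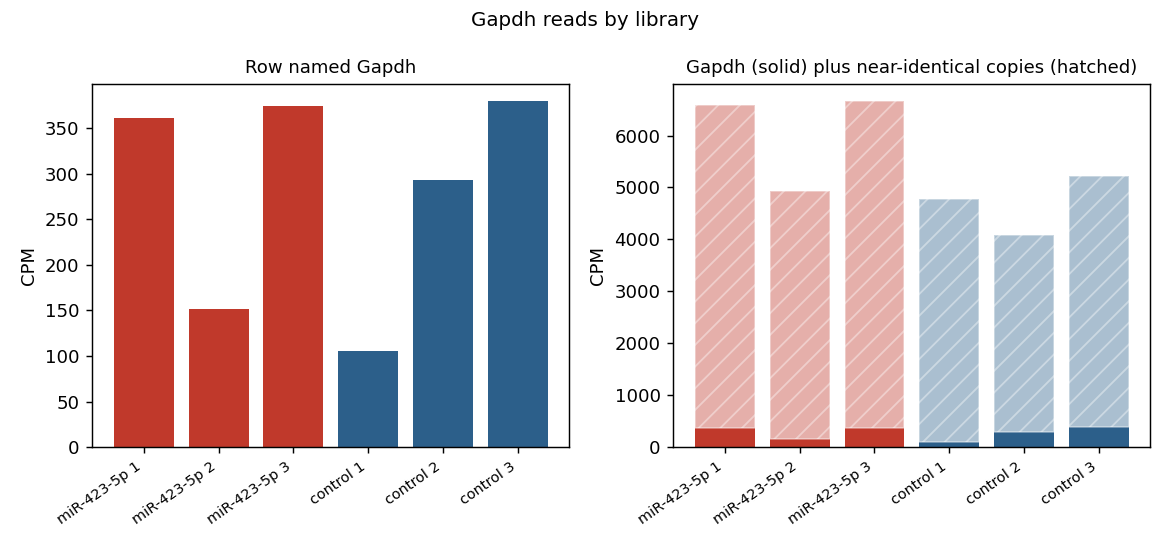
CPM of the row named Gapdh (left) and of that row plus its near-identical copies (right, copies hatched) in each library; bars start at 0. The copies held 92.7% to 97.8% of the reads, and the order of the libraries differs between the row and the sum.

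The enzymes are known HIF targets, so windows of 3 that rose and hold at least 2 matches are shown with the letters ACGTG, or CACGT where the match is on the other strand, in capitals. Windows run from 250 bases before to 50 bases after a transcription start, from RefSeq on GRCm38.p6, given on the strand of the gene. Ldha is at chr7:46845554-46845853 (plus strand), Pgk1 at chrX:106186850-106187149 (plus strand) and the second start of Pkm at chr9:59656977-59657276 (plus strand).
Ldha: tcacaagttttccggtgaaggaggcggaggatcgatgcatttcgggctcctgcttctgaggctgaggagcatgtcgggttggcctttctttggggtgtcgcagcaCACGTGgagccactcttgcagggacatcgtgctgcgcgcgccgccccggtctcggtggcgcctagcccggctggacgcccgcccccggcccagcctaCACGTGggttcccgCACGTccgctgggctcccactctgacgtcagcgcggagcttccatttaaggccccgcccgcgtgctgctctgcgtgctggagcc
Pgk1: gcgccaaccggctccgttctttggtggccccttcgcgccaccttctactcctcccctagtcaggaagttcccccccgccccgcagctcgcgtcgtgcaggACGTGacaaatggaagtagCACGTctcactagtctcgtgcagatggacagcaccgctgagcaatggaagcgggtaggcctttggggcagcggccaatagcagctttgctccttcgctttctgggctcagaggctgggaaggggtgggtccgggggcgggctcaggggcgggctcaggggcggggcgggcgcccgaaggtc
Pkm: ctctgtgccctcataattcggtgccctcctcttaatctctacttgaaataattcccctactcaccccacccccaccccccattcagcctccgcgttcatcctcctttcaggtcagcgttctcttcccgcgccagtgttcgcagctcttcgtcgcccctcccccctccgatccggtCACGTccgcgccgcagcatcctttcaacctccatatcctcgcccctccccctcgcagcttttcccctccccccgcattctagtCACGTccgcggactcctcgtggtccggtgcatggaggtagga
Ldha held 5 matches, of which 4 lie in a pair of palindromes CACGTG that read the same on both strands and count as 2 matches each. Pgk1 and Pkm held 2 matches each. The other RefSeq window of Ldha and the other of Pkm held none, and neither did the windows of Gpi1, Pfkl and Pfkp, 3 of the 8 enzymes that rose. A window could be matched for 36 of the 39 genes, all but Bnip3l, Epas1 and Ndrg1. At least 1 ACGTG on either strand was in 23 of the 36 (63.9%), against 28.2% of the 11914 genes tested that have a window, and at least 2 were in 36.1% against 13%. By role, 10 of 17 enzymes (58.8%), 3 of 5 flux regulators, 1 of 4 HIF factors and regulators, 3 of 3 prolyl hydroxylases and 6 of 7 other hypoxia targets held it. The longer CACGTG, which overlaps ACGTG, was in 16.7% of the 36 and in 11.3% of all genes with a window. Within the set, 6 of the 23 genes with a match rose and 1 fell, with a median log2 fold change of 0.32, and 4 of the 13 without one rose, with a median of 0.32. Such a match is a description of the sequence, not of binding.

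Of the 5 genes that steer pyruvate and flux, 1 rose. Pdk1, a kinase that inhibits pyruvate dehydrogenase, had 50.0, 71.5 and 53.2 CPM in miR-423-5p libraries and 41.1, 30.3 and 28.6 CPM in controls. The groups did not overlap, and the increase was 1.75-fold (edgeR adjusted p = 0.0245). Its relative Pdk3 had 58.2, 58.2 and 60.9 CPM in miR-423-5p libraries and 55.9, 53.9 and 47.7 CPM in controls, without overlap and without a call (edgeR adjusted p = 0.209). Pfkfb3 and Pfkfb4 make fructose 2,6-bisphosphate, the activator of phosphofructokinase, and their values ran in opposite directions. Pfkfb3, the main form described in endothelium, had 9.41, 12.1 and 11.5 CPM in miR-423-5p libraries and 13.6, 16.7 and 24.0 CPM in controls, all controls above all miR-423-5p libraries (log2 fold change −0.71 ± 0.216; edgeR adjusted p = 0.0618). Pfkfb4 had 7.90, 6.88 and 8.58 CPM in miR-423-5p libraries and 5.91, 6.72 and 5.59 CPM in controls (edgeR adjusted p = 0.151). Slc16a3, the lactate exporter MCT4, was scarce and not called, with 1.07, 0.858 and 2.23 CPM in miR-423-5p libraries and 2.67, 1.92 and 2.02 CPM in controls.

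None of the 5 HIF subunits and regulators was called. Hif1a, the main alpha subunit here, had 245, 424 and 313 CPM in miR-423-5p libraries and 268, 285 and 207 CPM in controls, with overlap (log2 fold change 0.37 ± 0.205; edgeR adjusted p = 0.257). Epas1, which encodes HIF-2 alpha, was far lower per length, at 1.82 FPKM in miR-423-5p libraries and 1.52 FPKM in controls against 48.6 and 42.5 FPKM for Hif1a. Its 11.7, 13.3 and 9.97 CPM in miR-423-5p libraries were all above the 7.37, 9.04 and 9.29 CPM in controls, without a call (edgeR adjusted p = 0.0957). Arnt, the shared partner subunit, had a log2 fold change of 0.01, with 30.6, 41.5 and 31.4 CPM in miR-423-5p libraries and 31.2, 36.2 and 35.5 CPM in controls. Vhl, the ubiquitin ligase subunit, was at 24.3, 27.0 and 25.9 CPM in miR-423-5p libraries and 25.3, 22.2 and 21.3 CPM in controls. Hif1an, the asparagine hydroxylase FIH, was at 62.0, 67.6 and 63.1 CPM in miR-423-5p libraries and 57.4, 62.5 and 65.4 CPM in controls. Both overlapped between groups. For all 5 genes miR-423-5p replicate 2 was the highest of the miR-423-5p libraries.

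Among the prolyl hydroxylases, the sensors that mark HIF alpha in oxygen, Egln3 rose and its relatives were not called. Egln3, itself a known HIF target, lies at chr12:54178981-54203860 on the minus strand. It had 447, 546 and 466 CPM in miR-423-5p libraries and 281, 225 and 184 CPM in controls. Every miR-423-5p library was well above every control, with 486 ± 52.5 CPM in miR-423-5p libraries against 230 ± 48.6 CPM in controls (SD, n = 3 each), a 2.11-fold increase (log2 fold change 1.08 ± 0.158, SE; edgeR adjusted p = 0.00516). It was called as higher in each of the 6 settings that left out a library and in each of 10 other settings. Egln1, the main oxygen sensor in most tissues, had 127, 151 and 132 CPM in miR-423-5p libraries and 141, 103 and 85.3 CPM in controls (edgeR adjusted p = 0.251). Egln2 had 96.3, 75.3 and 92.3 CPM in miR-423-5p libraries and 75.0, 79.2 and 77.0 CPM in controls (edgeR adjusted p = 0.236). Both overlapped between groups. The promoter window of Egln3, at chr12:54203825-54204124 on the minus strand, is shown for the gene of this class that rose, and holds 1 match, 229 bases before the start.
Egln3: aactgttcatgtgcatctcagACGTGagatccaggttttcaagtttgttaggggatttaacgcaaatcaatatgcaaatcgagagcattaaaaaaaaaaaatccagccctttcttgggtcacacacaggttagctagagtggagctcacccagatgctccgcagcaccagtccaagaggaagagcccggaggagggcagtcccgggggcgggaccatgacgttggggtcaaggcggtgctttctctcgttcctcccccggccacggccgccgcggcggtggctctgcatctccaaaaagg

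Ratios of related genes within a library do not depend on the scaling between libraries, and 13 pairs were compared. The log2 ratio of Egln3 to Egln1 counts was 1.82, 1.85 and 1.82 in miR-423-5p libraries and 1, 1.13 and 1.11 in controls, a difference of 0.75 without overlap. The two-sided exact permutation p was 0.1, the smallest that 3 libraries against 3 allow, and 0.26 after Benjamini-Hochberg adjustment over the 13 pairs, so no pair could pass the threshold. By FPKM, Egln3 made up 82.6%, 83.0% and 82.7% of the pair in miR-423-5p libraries and 73.0%, 74.8% and 74.5% in controls. Pfkfb4 over Pfkfb3 also did not overlap, at −0.25, −0.82 and −0.43 in miR-423-5p libraries and −1.20, −1.31 and −2.10 in controls (exact permutation p = 0.1, adjusted 0.26). Nor did Pdk3 over Pdk1, lower by a difference of −0.63, Eno2 over Eno1, by −0.60, or Aldoc over Aldoa, by −3.45. The other 8 pairs overlapped, with exact permutation p from 0.2 to 1, Hk2 over Hk1 and Pfkp over Pfkl among them.

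**Figure D4:**
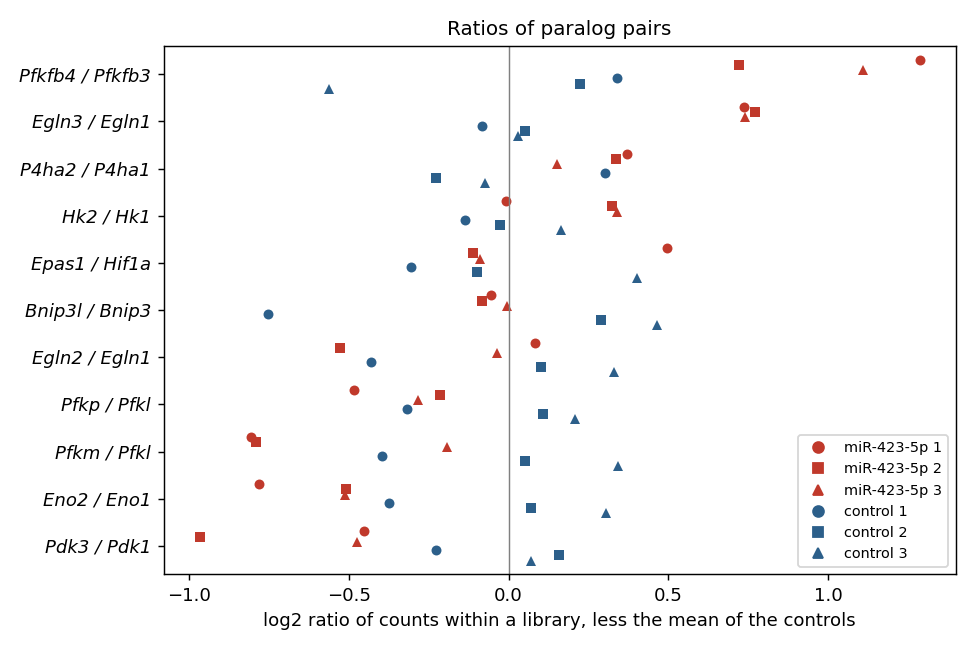
Log2 ratio of the counts of related genes within each library, less the mean of the controls, for 11 of the 13 pairs (Aldoc over Aldoa and Ldhb over Ldha are left out for their low counts); each symbol is 1 library. The 3 miR-423-5p libraries lie apart from the 3 controls for Pfkfb4 over Pfkfb3, Egln3 over Egln1, Eno2 over Eno1 and Pdk3 over Pdk1.

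The 9 other hypoxia targets did not move one way: 2 rose, 1 fell and 6 were not called. Ndrg1, a stress-induced gene and widely used hypoxia marker, had 126, 139 and 122 CPM in miR-423-5p libraries and 92.6, 61.8 and 63.5 CPM in controls. It rose 1.78-fold without overlap (edgeR adjusted p = 0.0138). Bnip3l, a mitophagy receptor, had 132, 156 and 137 CPM in miR-423-5p libraries and 107, 79.5 and 73.4 CPM in controls, a 1.63-fold increase without overlap (edgeR adjusted p = 0.0181). A near-identical copy held 5.89% to 10.2% of its reads, and summing the copy changed no call. Ddit4, which encodes the mTORC1 inhibitor REDD1 and lies at chr10:59949669-59951834, had 14.8, 15.4 and 12.9 CPM in miR-423-5p libraries and 29.0, 21.6 and 27.3 CPM in controls. All miR-423-5p libraries were below all controls, at 14.4 ± 1.30 CPM in miR-423-5p libraries and 26.0 ± 3.86 CPM in controls (SD, n = 3 each), 1.81-fold lower (log2 fold change −0.85 ± 0.141, SE; edgeR adjusted p = 0.00827). Its decrease was called in each of the 6 settings that left out a library and in each of 10 other settings. The 3′ untranslated region of Ddit4 holds the longer seed match shown above, which was not tested as a binding site. Mxi1, the other gene with that match, had a log2 fold change of 0.66 and was not called. Adm, the vasodilator peptide adrenomedullin, had 202, 184 and 170 CPM in miR-423-5p libraries and 243, 211 and 217 CPM in controls. The groups did not overlap, but Adm was not called (log2 fold change −0.27, edgeR adjusted p = 0.0915). Its decrease was called in 4 of 10 other settings and in none of the 6 that left out a library.

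The remaining 5 were not called. Control 1 was the highest control for 9 of the 9 other hypoxia targets and for 24 of all 39 genes, against 32.1% of all genes tested. Over the 9 its level was a median of 1.48 times the mean of controls 2 and 3, against 1.09 over the enzymes and 0.999 over all genes tested. Bnip3, a mitophagy receptor related to Bnip3l that shares reads with 5 near-identical copies, had 39, 47 and 39 CPM in miR-423-5p libraries and 51.4, 18.5 and 15.2 CPM in controls. Control 1 lay above all miR-423-5p libraries and the other controls below them, giving a log2 fold change of 0.56 ± 0.420 with all libraries (edgeR adjusted p = 0.401) and of 1.31 without control 1 (adjusted p = 0.0108, within a range of 0.0108 to 0.705 over the alternatives). Ankrd37, a small ankyrin-repeat protein, had 12.9, 11 and 13.8 CPM in miR-423-5p libraries and 10.3, 3.76 and 3.29 CPM in controls. Its log2 fold change was 1.12 ± 0.411 (edgeR adjusted p = 0.104) with all libraries and 1.84 without control 1 (adjusted p = 0.00890, within a range of 0.00890 to 0.273). P4ha2, a collagen prolyl 4-hydroxylase subunit, had 38.1, 41.9 and 36.1 CPM in miR-423-5p libraries and 39.7, 24.6 and 24.0 CPM in controls, with log2 fold changes of 0.39 with all libraries (edgeR adjusted p = 0.211) and 0.67 without control 1 (adjusted p = 0.0279, within a range of 0.0279 to 0.472). Mxi1, an antagonist of MYC, had 26.1, 39.5 and 30.5 CPM in miR-423-5p libraries and 28.7, 19.1 and 12.9 CPM in controls, with overlap (edgeR adjusted p = 0.152). P4ha1, the other collagen hydroxylase subunit, had 112, 126 and 123 CPM in miR-423-5p libraries and 122, 109 and 95.8 CPM in controls, also with overlap (edgeR adjusted p = 0.389). Without control 1, 6 of the 9 were called, and without control 2, 1 was.

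Beyond the 39 genes, wider lists of the same pathways were counted, to be read against the 9.09% of all genes tested that rose and the 7.21% that fell. Of 17 other glycolysis genes tested, 5 rose (29.4%) and none fell, with a median log2 fold change of 0.13. Among them were Pgm1 and Pgm2, the phosphoglucomutases that link glycogen to glycolysis (1.57-fold and 1.33-fold higher; edgeR adjusted p = 0.0155 and 0.0199). Bsg, the chaperone of lactate transporters (1.44-fold; edgeR adjusted p = 0.0238), and Eno3, the muscle enolase (1.31-fold; edgeR adjusted p = 0.0361), rose too. Of 13 genes for the entry of pyruvate into mitochondria, 1 rose (7.69%, below the share over all genes), the mitochondrial pyruvate carrier subunit Mpc1 (1.39-fold; edgeR adjusted p = 0.0340). There 1 fell: Pdk4, a further pyruvate dehydrogenase kinase, was at 3.24 ± 0.413 CPM in miR-423-5p libraries and 7.29 ± 0.131 CPM in controls (SD, n = 3 each), 2.25-fold lower (edgeR adjusted p = 0.00406), while its relative Pdk1 rose. Of 7 genes of gluconeogenesis and glycogen 1 rose (14.3%), the brain glycogen phosphorylase Pygb (1.25-fold; edgeR adjusted p = 0.0253).

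The pentose phosphate pathway branches from glucose 6-phosphate to make NADPH and ribose. Of 9 genes tested, 3 rose (33.3%) and 1 fell (11.1%), with a median log2 fold change of 0.13. G6pdx, its rate-limiting dehydrogenase, was at 191 ± 16.8 CPM in miR-423-5p libraries and 128 ± 6.08 CPM in controls (SD, n = 3 each), 1.49-fold higher (edgeR adjusted p = 0.00601). Tkt, encoding transketolase, and Taldo1, encoding transaldolase, rose 1.30-fold and 1.31-fold (edgeR adjusted p = 0.0286 and 0.0339), and the ribose 5-phosphate isomerase gene Rpia fell, being 1.31-fold lower (edgeR adjusted p = 0.0394).

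Other genes of HIF control and of the hypoxia response moved both ways. Of 15 further HIF pathway factors 1 rose (6.67%) and 2 fell (13.3%), with a median log2 fold change of 0.04: Rack1, which promotes HIF-1 alpha degradation, was 1.24-fold higher (edgeR adjusted p = 0.0418), Cited2, which competes with HIF for its coactivators, 1.43-fold lower (edgeR adjusted p = 0.0156) and the ligase scaffold Cul2 1.29-fold lower (edgeR adjusted p = 0.0453). Of 33 further hypoxia targets 6 rose (18.2%) and 7 fell (21.2%), with a median of 0.07. Pgf, encoding placental growth factor, was at 443 ± 37.4 CPM in miR-423-5p libraries and 180 ± 46.7 CPM in controls (SD, n = 3 each), 2.46-fold higher (edgeR adjusted p = 0.00382), and Angpt2, a ligand of the receptor Tie2, was 1.51-fold higher (edgeR adjusted p = 0.00316). Lox, a collagen cross-linking enzyme, was at 0.192 ± 0.289 CPM in miR-423-5p libraries and 14.4 ± 7.38 CPM in controls and fell (edgeR adjusted p = 0.00847), as did 6 of the 10 fibroblast and pericyte markers; the part of that shift in Lox was not tested. Hmox1, encoding heme oxygenase 1, was 1.47-fold lower (edgeR adjusted p = 0.00867). Vegfa, the best known endothelial growth factor among HIF targets, was at 25.4 ± 5.23 CPM in miR-423-5p libraries and 38.7 ± 7.15 CPM in controls and not called (edgeR adjusted p = 0.0631); it was singled out after its values were seen.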

How the data were processed

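Polyadenylated RNA was sequenced as 150-base read pairs from dUTP libraries, which mark strand, per the labels' protocols. For each gene and library, the deposited table gives the authors' whole-number count and a deposited FPKM value, per the file headers. Cutadapt 1.9, HISAT2 2.2.1, StringTie 2.1.6, DESeq2, edgeR and GRCm38 appear, per the submitters' processing notes, without a stated role. Which annotation release and counting rules were used, and with which strand option, is not given in the sources used here. Overlapping genes and near-identical copies are therefore uncertain. Coordinates are those of the table.

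Counts were tested with edgeR 4.0.16 in R 4.3.3 (filterByExpr, TMM, glmQLFit, glmQLFTest) on the group alone, with Benjamini-Hochberg adjustment over the 18103 genes tested and a threshold of 0.05. The standard error (SE) of an edgeR log2 fold change is its absolute value divided by the square root of the quasi-likelihood F statistic. CPM values are scaled to TMM-adjusted library sizes. Where a library has no read, the counting error alone allows 3 reads. By total counts, without the TMM adjustment, that equals 0.0382 CPM in the deepest and 0.0475 CPM in the shallowest library. Of the 2 rows named Aldoa, that with most counts was used. Paralog ratios took log2 of counts plus a small offset. Near-identical copies were found with blastn 2.17.0 in GENCODE M21 transcripts.

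The 39 genes and the wider lists were chosen with earlier results of these data known. Every member is named, with up to 4 called genes per wider list by smallest p. Slc2a1, Vegfa and the KEGG counts of the closing section were chosen after values were seen. Alternatives were DESeq2 1.42.0, its size factors, total counts, no filter, leaving out each library, a replicate block and limma 3.58.1 on log2 FPKM. Robust dispersion and sums over copies were added after seeing the data.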

Additional observations from a re-analysis of the deposited data

How the results depend on the processing

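The p-values rest on 3 libraries a group, the counting rules behind the table are unknown here, and messenger RNA counts do not measure enzyme activity or HIF protein. Over all genes, 1852 were called with no filter on low counts, against 2951 with it, and between 942 and 4222 when a library was left out. Glycolytic enzymes called numbered 8, all higher, 7 with total counts (6 higher and Aldoc lower), and 4 by limma on log2 FPKM with a pseudocount of 1, 4 with 0.1 and 4 with 5, and between 1 and 10 when a library was left out. Flux regulators called numbered 1, and 2 by DESeq2 and 2 with total counts, 1 higher and Pfkfb3 lower in each, 0 with no filter and 0, 0 and 0 by limma with the 3 pseudocounts, and between 0 and 1 when a library was left out. HIF factors and hydroxylases called numbered 1, and 2 by DESeq2, and between 1 and 2 when a library was left out. Other hypoxia targets called numbered 3, and between 1 and 6 when a library was left out. The cause of these shifts was not tested. With a replicate block on the library numbers, 2411 genes were called, 10 enzymes (9 higher and Ldhb lower), 2 flux regulators (1 higher and Pfkfb3 lower), 1 of the HIF factors and hydroxylases and 4 other hypoxia targets. Deviations of libraries with the same number correlated at 0.0749, −0.0264 and 0.0498, and not every library correlated best with its own number. The labels state no pairing, and correlations this small over so few libraries cannot settle whether there was one.

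Log2 fold changes that turned negative belonged to uncalled genes. Scaling to total counts gave −0.057 for Hk2, −0.088 for Pfkm, −0.15 for Arnt, −0.10 for Hif1an and −0.017 for P4ha1. By limma on log2 FPKM with pseudocounts of 1, 0.1 and 5, Hk2 was at −0.062, −0.072 and −0.040, Pfkm at −0.11, −0.13 and −0.083, Arnt at −0.14, −0.18 and −0.078, and Hif1an at −0.11, −0.12 and −0.080. By the same test Pdk3 was at −0.0087, −0.0090 and −0.0075, Vhl at −0.011, −0.013 and −0.0076, and P4ha1 at −0.036, −0.037 and −0.031. When a library was left out, Pfkm ran from −0.14 (without miR-423-5p replicate 3) to 0.23, Gapdh from −0.18 (without control 1) to 0.57, and Arnt from −0.13 (without miR-423-5p replicate 2) to 0.095, with −0.050 without control 1. Arnt was at −0.0011 with the replicate block.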

Other observations

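The deposited table assigns KEGG pathways to genes, and these pathways overlap in part with the lists above. Of 32 tested genes of the KEGG glycolysis and gluconeogenesis pathway outside the 39, 7 rose (21.9%, against 9.09% of all genes tested) and none fell, with a median log2 fold change of 0.12. The 3 with the smallest adjusted p were Aldh3b1, an aldehyde dehydrogenase (1.95-fold higher; edgeR adjusted p = 0.00319), Pgm1, and Aldh2, the mitochondrial aldehyde dehydrogenase (1.39-fold higher; edgeR adjusted p = 0.0198). Of 72 tested genes of the KEGG HIF-1 signaling pathway outside the 39, 10 rose (13.9%) and 7 fell (9.72%), near the 9.09% and 7.21% of all genes tested, with a median of 0.09. Those with the smallest adjusted p were Nos3, the endothelial nitric oxide synthase and one of the endothelial markers (2.30-fold higher; edgeR adjusted p = 0.000815), and the cell cycle inhibitor gene Cdkn1a (1.71-fold lower; edgeR adjusted p = 0.00199). Edn1, encoding the vasoconstrictor endothelin 1, was 1.86-fold lower (edgeR adjusted p = 0.00305). Of the 7 that rose in the glycolysis pathway, Pgm1, Pgm2, Eno3 and Galm were already counted among the other glycolysis genes. At least Angpt2, Hmox1 and Cul2 of the HIF-1 pathway were also counted above, and the KEGG shares therefore partly repeat the earlier ones.

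Bnip3 shares reads with 5 near-identical copies. They held 18.3%, 18% and 20.5% of the reads of row and copies in miR-423-5p libraries and 17.2%, 36.1% and 43.1% in controls, and the sum had a log2 fold change of 0.39 (edgeR adjusted p = 0.414). A second row named Aldoa, at chr7:126800790-126809108 beside the gene, was at 0.773, 0.898 and 0.863 CPM in miR-423-5p libraries and 1.70, 1.60 and 2.54 CPM in controls, and fell (log2 fold change −1.20 ± 0.278, SE; edgeR adjusted p = 0.0261), where the main row rose.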
